A study of Mus musculus with 2 samples.

Results

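The genes described here are 10 genes of the cytotoxic granule and of inflammatory chemokine release, chosen by name from what their products are known to do and matched by their GENCODE M21 identifiers: the granzyme genes Gzma, Gzmb and Gzmk, the perforin gene Prf1, the granule membrane gene Nkg7, the granzyme B inhibitor gene Serpinb9, and the chemokine genes Ccl3, Ccl4, Ccl5 and Xcl1. They were chosen with earlier results of these data known. They are 10 of 55536 genes in the gene tables, of which 22028 are protein coding. The sample was labelled as mouse regulatory T cells, a CD4 lineage that dampens immunity, from 1 adult male mouse aged 4 months of the strain Foxp3CreERT2 x Rosa26YFP, and its polyadenylated RNA was sequenced in 2 technical libraries. In that strain the Foxp3 allele carries the CreERT2 recombinase, which ties the recombinase to cells that express Foxp3, and the Rosa26 allele carries a yellow fluorescent reporter. The labels trace the cells to a hematopoietic cell of the bone marrow and name no sort, gate, agent or activation. There is 1 group, so the data give levels in 1 sample and no difference between conditions, and each SD (n = 2) covers technical variation only.

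Cytotoxic lymphocytes store granzymes, which are serine proteases, and perforin, which forms pores in a target cell's membrane, in secretory granules held together by the proteoglycan serglycin. Granule release lets perforin deliver granzymes into the target, where granzyme B cleaves substrates after aspartate and granzymes A and K after basic residues. CCL3, CCL4 and CCL5 are CC chemokines that attract leukocytes to sites of inflammation, and XCL1 attracts cross-presenting dendritic cells. In regulatory T cells, granzyme B and perforin have been described as 1 of several routes of suppression, used mainly by activated cells.

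The sequences that define the chemokine and granzyme families are shown first, since the reads of related genes can be counted separately only where their letters differ. Each line is a stretch of the coding strand, 5′ to 3′, read from the GENCODE M21 transcripts on GRCm38 (mm10). In the CC chemokines the capitals mark the adjacent cysteine codons that name the class; in Xcl1 they mark the single cysteine codon of the C class.
Ccl5: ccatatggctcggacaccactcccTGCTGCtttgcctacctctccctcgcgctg
Ccl4: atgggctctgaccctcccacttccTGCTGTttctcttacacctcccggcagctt
Ccl3: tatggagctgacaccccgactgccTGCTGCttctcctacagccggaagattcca
Xcl1: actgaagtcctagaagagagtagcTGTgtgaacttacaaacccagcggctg

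The Ccl5 stretch crosses an exon junction and lies on the minus strand at chr11:83530386-83530389 and chr11:83529218-83529267. The Ccl4 stretch, on the plus strand, also crosses a junction and ends in the exon block chr11:83663459-83663511. The Ccl3 stretch lies on the minus strand and ends in the exon block chr11:83648628-83648680. The Xcl1 stretch is within 1 exon on the minus strand, chr1:164932951-164933001. The search was for 2 codons TGC or TGT in a row, in frame on the coding strand, and 25.2% of the coding sequences of 21562 protein-coding genes held such a pair. The pair is therefore not particular to chemokines as a string of letters, and Xcl1 itself has one at coding base 34, inside its signal peptide. Over the aligned coding sequences, Ccl4 and Ccl3 were 69.6% identical, Ccl5 and Ccl3 61.9%, Ccl5 and Ccl4 59.7%, and Ccl5 and Xcl1 61.8%. The longest run of identical letters in any of these 4 pairs was 13 bases, between Ccl5 and Ccl3.

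For the granzymes the capitals mark the codons of the glycine, aspartate, catalytic serine and glycine that identify them as chymotrypsin-fold serine proteases.
Gzmb: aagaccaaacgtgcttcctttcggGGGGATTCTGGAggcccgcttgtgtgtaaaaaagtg
Gzma: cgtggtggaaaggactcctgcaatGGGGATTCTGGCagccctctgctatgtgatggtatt
Gzmk: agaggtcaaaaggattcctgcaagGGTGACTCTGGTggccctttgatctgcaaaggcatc

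All 3 stretches are on minus strands and cross an exon junction. The Gzmb stretch lies at chr14:56260182-56260205 and chr14:56259527-56259562, the Gzma stretch at chr13:113095751-113095774 and chr13:113094015-113094050, and the Gzmk stretch at chr13:113172885-113172908 and chr13:113172000-113172035. Codons for these 4 residues, in frame on the coding strand, were found in 2.02% of the 21562 coding sequences. Identity over the coding sequences was 62.3% for Gzmb and Gzma, 62.9% for Gzmb and Gzmk and 63.3% for Gzma and Gzmk, with no identical run over 14 bases. Each of the 7 printed stretches occurred in the transcripts of 1 gene only. Cut into windows of 50 bases, the transcripts of 9 of the 10 genes shared none with another gene on the same strand. The exception was Serpinb9, which shared 13 of 3442 windows (0.378%) with its neighbour Serpinb9b. At 36 bases, Gzmb shared 14 of 1401 windows with Gzmc, Prf1 shared 1 of 2546 and Serpinb9 shared 102 of 3456. At 100 bases none of the 10 shared any.

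The 10 genes spanned a wide range, with Ccl5 far above the rest, Nkg7, Gzmb and Serpinb9 in the middle, Prf1, Gzma, Xcl1 and Ccl4 low, and Gzmk and Ccl3 near the limit of counting. Levels are in TPM, a share of all transcripts that divides by transcript length and so allows genes to be compared. Genes that reached 1 TPM in library 1 and in library 2 are called expressed, which held for 8 of the 10, beside 46.5% of all protein-coding genes. At 5 TPM in each library stood 5 of the 10, beside 37.0% of protein-coding genes. The median of the 10 was 4.60 TPM, against 0.625 TPM over all protein-coding genes. Together they held 403 TPM in library 1 and 423 TPM in library 2, and 0.0232% and 0.0253% of all estimated counts. In bulk RNA, fewer cells that express a gene and less RNA per cell cannot be told apart, and this holds for every level given here.

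The depth was 15821875 estimated counts on genes in library 1 and 16153671 in library 2. A count of 0 allows up to 3 counts, which is 0.190 CPM in library 1 and 0.186 in library 2. All intervals given with levels are exact 95% Poisson intervals of the count carried over to TPM, and they and these floors cover counting error only.

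**Figure D1:**
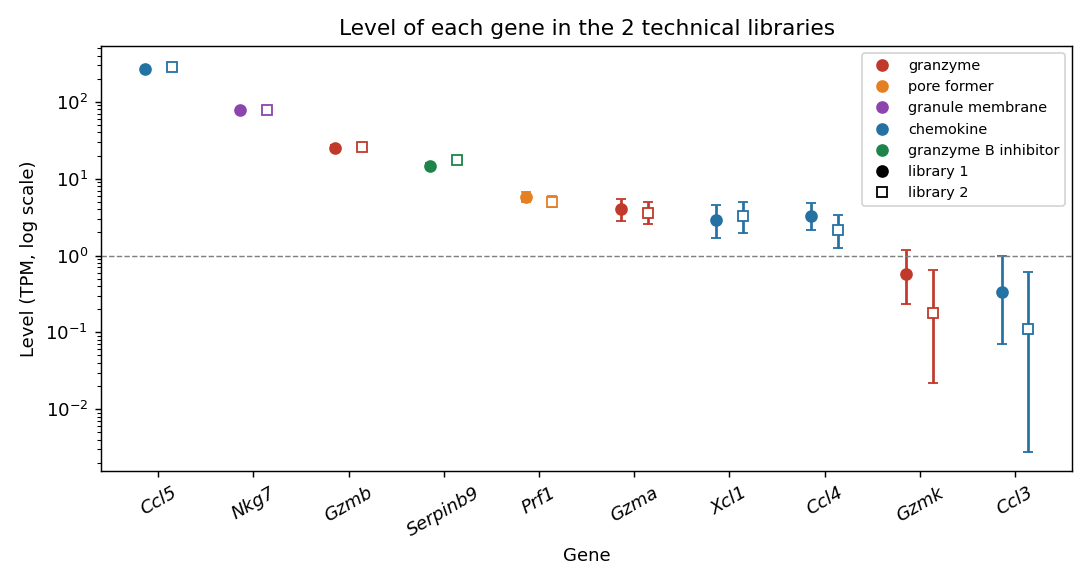
Level of each of the 10 genes in both libraries, in TPM on a log scale, with 95% counting intervals as bars, 1 point per library and a dashed line at 1 TPM. Ccl5 stands highest at 268 and 286 TPM, and Gzmk and Ccl3 are the only genes under 1 TPM in both libraries.

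Among the granzymes, Gzmb led. Gzmb (ENSMUSG00000015437.5, chr14:56258838-56262260, minus strand) encodes granzyme B, the protease that sets off apoptosis in target cells. It had 434 estimated counts and 25.2 TPM (interval 22.8 to 27.6) in library 1, and 469 counts and 25.9 TPM (23.6 to 28.4) in library 2, a mean of 25.5 ± 0.54 TPM (SD, n = 2). Both libraries placed it at nearly the same level, above 59.4% of the expressed protein-coding genes. Gzma (ENSMUSG00000023132.8, chr13:113093825-113100981, minus strand) encodes granzyme A, the tryptase of the granule. It had 41 counts and 3.98 TPM (2.86 to 5.40) in library 1 and 39 counts and 3.61 TPM (2.57 to 4.93) in library 2. The intervals of the 2 libraries overlapped almost wholly, and Gzmb was 6.32 times Gzma in library 1 and 7.18 times in library 2.

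Gzmk (ENSMUSG00000042385.14, chr13:113171608-113225908, minus strand) encodes granzyme K, another tryptase. It rested on 7 counts in library 1 and 2 in library 2, or 0.58 TPM (0.233 to 1.20) and 0.18 TPM (0.0218 to 0.650). At so few counts the libraries could not be told apart. The Gzmk gene overlaps Esm1 on the opposite strand over 8440 bases, and Esm1 had 0 counts in both libraries. Gzma and Gzmk sit near each other on chromosome 13, with 70.6 kb between them.

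The 7 other granzyme genes were lower than Gzmb, and only Gzmc among them was expressed. Gzmc, whose start lies 27.6 kb from that of Gzmb, had 71 and 53 counts, or 6.76 and 4.81 TPM. Its level stood between Gzmb and Gzma in both libraries, with Gzmb 3.72 and 5.39 times as high. Further along the same locus Gzmf had 4 and 3 counts, and Gzmn, Gzmg, Gzmd and Gzme had 0 in both libraries. Gzmd, Gzme and Gzmg share 21.9%, 20.6% and 19.8% of their 50-base windows with other genes of the cluster, so counts among them could not have been divided with certainty, but there were none to divide. Gzmm, on another chromosome, had 2 and 9 counts (0.13 and 0.85 TPM). Of the summed TPM of all 10 granzyme genes, Gzmb held 68.0% and 72.8%, Gzmc 18.3% and 13.5%, and Gzma 10.8% and 10.1%.

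Prf1 (ENSMUSG00000037202.6, chr10:61297833-61304680, plus strand), the gene of the pore-forming protein perforin, was expressed at a low level. It had 168 counts and 5.79 TPM (4.95 to 6.73) in library 1 and 155 counts and 5.03 TPM (4.27 to 5.89) in library 2, a mean of 5.41 ± 0.54 TPM. Perforin RNA thus stood above 19.9% of the expressed protein-coding genes, and Gzmb was 4.35 and 5.16 times as high. Nkg7 (ENSMUSG00000004612.9, chr7:43437073-43438249, plus strand) encodes a small protein of the granule membrane involved in granule release. It had 748 counts and 78.3 TPM (72.8 to 84.1) in library 1 and 804 counts and 78.9 TPM (73.5 to 84.5) in library 2. The libraries differed by less than 1 TPM, and Nkg7 was 13.5 and 15.7 times Prf1 and 3.11 and 3.04 times Gzmb.

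Serpinb9 (ENSMUSG00000045827.10, chr13:33003250-33017957, plus strand) encodes the serpin that inhibits granzyme B and shields the cell that makes it. It had 620 counts and 14.6 TPM (13.5 to 15.8) in library 1 and 778 counts and 17.4 TPM (16.2 to 18.7) in library 2, a mean of 16.0 ± 2.00 TPM. Here the counting intervals of the 2 libraries did not overlap, and library 2 was the higher. Gzmb RNA was above that of its inhibitor in both libraries, by 1.72 and 1.49 times. Of the mouse genes next to it that carry the same name, Serpinb9b, 9.46 kb away, had 8.07 and 13.0 estimated counts. Serpinb9e had 0 and 1 estimated counts, and Serpinb9c, Serpinb9d, Serpinb9f and Serpinb9g had 0 in both libraries. In the smaller gene table, described further on, Serpinb9f had 0 and 2 counts and Serpinb9b had 4 and 0.

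The chemokine genes were uneven, with Ccl5 alone at a high level. Ccl5 (ENSMUSG00000035042.2, chr11:83525778-83530518, minus strand) encodes CCL5, also known as RANTES, which T cells make late after activation and memory T cells hold as RNA. It had 1615 counts and 268 TPM (255 to 282) in library 1 and 1807 counts and 286 TPM (273 to 300.0) in library 2. That placed it at rank 397 of the 22028 protein-coding genes, above 96.1% of those expressed. It exceeded Ctla4, an inhibitory receptor gene typical of regulatory T cells, by 1.31 and 1.41 times, and Foxp3 by 6.22 and 7.91 times. Other regulatory T cell genes were not all below it in TPM. Ikzf2, at 462 and 465 TPM, was above Ccl5 in both libraries. Il2ra, at 274 and 258 TPM, was above Ccl5 in library 1 and below it in library 2. These places of Ikzf2 and Il2ra held in TPM only. In the smaller gene table, described further on, Ccl5 had 910 counts per kb of its longest coding transcript. Ctla4 had 499 there, Il2ra 317, Foxp3 139 and Ikzf2 130, each from the mean count of both libraries.

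Ccl4 (ENSMUSG00000018930.3, chr11:83662584-83664683, plus strand), which encodes the inflammatory chemokine CCL4, had 25 counts and 3.29 TPM (2.13 to 4.86) in library 1 and 17 counts and 2.13 TPM (1.24 to 3.41) in library 2. Its intervals overlapped between libraries, and Ccl5 was 81.6 and 134 times as high. Ccl3 (ENSMUSG00000000982.5, chr11:83647844-83649355, minus strand), which encodes the related chemokine CCL3, had 3 counts and 0.34 TPM (0.0701 to 0.994) in library 1 and 1 count and 0.11 TPM (0.0028 to 0.613) in library 2. Both of its counts were at or below the floor of 3. Xcl1 (ENSMUSG00000026573.7, chr1:164931644-164935527, minus strand), which encodes the C-class chemokine XCL1, had 17 counts and 2.88 TPM (1.68 to 4.61) in library 1 and 20 counts and 3.24 TPM (1.98 to 5.00) in library 2. The whole Xcl1 gene, 3884 bases, lies under Gm20743 on the opposite strand, which had 0 counts in library 1 and 1 in library 2.

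Ccl5, Ccl3 and Ccl4 lie within 138.9 kb of chromosome 11, in a cluster of CC chemokine genes. From the start of Ccl5, the starts of Ccl9, Ccl6, Ccl3 and Ccl4 lie 48.1, 62.6, 119 and 132 kb away. Ccl9 had 1 and 2 counts and Ccl6 had 2 and 0, so the other chemokine genes that lie between Ccl5 and Ccl3 were at or under the floor of 3 counts. Ccl3 and Ccl4, which are often transcribed together on T cell activation, are separated by 13.2 kb, and neither came near the level of Ccl5.

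**Figure D2:**
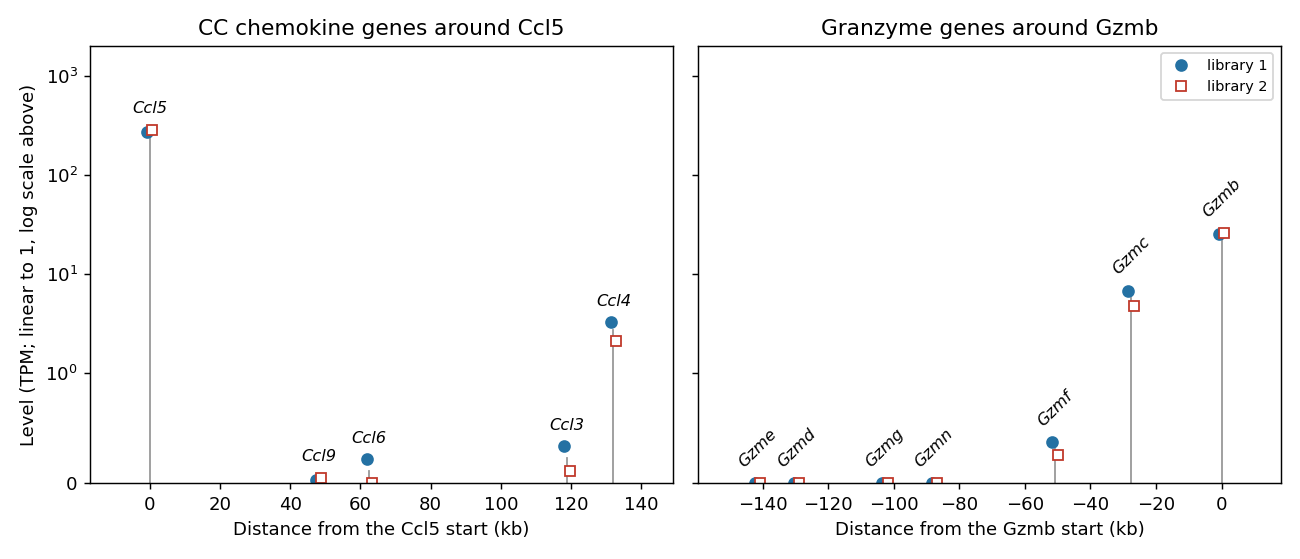
TPM of the CC chemokine genes within 200 kb of the start of Ccl5 against the distance from it in kb, and of the granzyme B cluster against the distance from the start of Gzmb, with 1 point per gene and library, stems to the mean, and a level axis that is linear to 1 TPM and logarithmic above. Ccl5 and Gzmb stand highest, and Gzmc at a mean of 5.79 TPM and Ccl4 at 2.71 TPM are the only other genes above 1 TPM in this range; Ccl1, 1225 kb from Ccl5, is not drawn.

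Of the 16 CC chemokine genes tallied beside the 4 described here, 4 were expressed and 8 had 0 counts in both libraries. Those expressed were Ccl25 (mean 9.38 TPM) and Ccl27a (6.53 TPM), which encode homeostatic chemokines of gut and skin, and Ccl1 and Ccl20. The lead of Ccl25 and Ccl27a held in TPM only. The smaller gene table, described further on, kept 16.0% and 15.2% of their counts, against 68.3% for Ccl1 and 32.8% for Ccl20. Per length, Ccl1 ranked 1 there, Ccl25 2, Ccl20 3 and Ccl27a 4. Ccl1, which encodes the CCR8 ligand, had 19 and 44 counts, or 3.29 and 7.26 TPM. Ccl20, which encodes the CCR6 ligand, had 46 and 21 counts, or 4.97 and 2.02 TPM. Ccl1 was thus higher in library 2 and Ccl20 in library 1, both by more than counting error in the test described further on (adjusted p = 0.0134 and 0.0121). The 8 genes with no count were Ccl2, Ccl7, Ccl8, Ccl11, Ccl12, Ccl17, Ccl19 and Ccl22. Over all 20 chemokine genes, Ccl5 held 89.6% of the TPM in library 1 and 90.3% in library 2.

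In mean TPM the order ran Ccl5, Nkg7, Gzmb, Serpinb9, Prf1, Gzma, Xcl1, Ccl4, Gzmk, Ccl3. The library values of neighbours did not overlap except for Xcl1 with Ccl4 and Gzmk with Ccl3. With the counting intervals added, Prf1 with Gzma and Gzma with Xcl1 could not be placed in order either. The steps from Ccl5 to Nkg7 (3.43 and 3.63 times), from Nkg7 to Gzmb and from Gzmb to Serpinb9 exceeded both spreads in both libraries. Ccl5 held 66.5% and 67.7% of the summed TPM of the 10 genes, Nkg7 19.4% and 18.6%, and Gzmb 6.24% and 6.13%.

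The genes that build, load and release cytotoxic granules were mostly well expressed. Of 16 such genes 15 had 5 TPM or more in each library, with a median of 33.2 TPM. Srgn, which encodes serglycin, the proteoglycan core on which granzymes are packed, had 1043 ± 60.0 TPM, the highest of the list, and was 39.8 and 41.9 times Gzmb. Both depended on the table: the smaller gene table, described further on, kept 8.60% of the counts of Srgn, and per length of the longest coding transcript Srgn was there 3.70 times Gzmb and ranked below Ctsw. Vamp8 (245 ± 16.9 TPM), a vesicle fusion protein gene, and Stxbp2 (148 ± 9.59 TPM), whose product Munc18-2 acts in granule fusion, were next in TPM. Per length in the smaller gene table, Vamp8 (21.6% of counts kept) fell from rank 2 to 7 and Arl8b (7.37%) from 10 to 13. Ap3b1 rose from rank 9 to 5 and Unc13d from 6 to 4, while Stxbp2 stayed at 3. Rab27a, with 19.1% of counts kept, was there 0.372 times Gzmb against 1.10 times in TPM. The granule cysteine protease gene Ctsw had 101 ± 0.40 TPM, and Ctsc, whose product activates granzymes by removing their leading dipeptide, had 70.7 ± 7.01 TPM. Of the remaining genes of granule docking and fusion, Unc13d had 58.2 ± 4.79 TPM, Rab27a 28.1 ± 3.03, Stx11 11.0 ± 1.47 and Lyst 7.87 ± 0.04. Each of these 4 is known as a gene of inherited defects of granule release. The lysosomal membrane genes Lamp2 and Lamp1 had 42.6 and 17.4 TPM, the granule tethering gene Sytl2 33.4 TPM, and the trafficking genes Ap3b1, Arl8b and Vamp7 33.0, 31.2 and 22.8 TPM, each a mean of both libraries. Vamp7, annotated on the scaffold GL456233.1, had no value in the smaller gene table and was not ranked there. Cd63, a granule and endosome membrane gene, was the exception at 0.40 and 0.38 TPM.

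Both death ligand genes of the list were expressed. Fasl, the ligand that triggers death through Fas, had 5.50 and 7.96 TPM, and Tnfsf10, which encodes TRAIL, had 16.9 and 14.9 TPM. Their order held in TPM only. The smaller gene table kept 16.6% of the counts of Tnfsf10 and 44.6% of those of Fasl. Per length, Fasl ranked 1 there and Tnfsf10 2. Among 11 other serpin genes of protease inhibition 5 were expressed, all at 5 TPM or more, and 4 had 0 estimated counts. Serpina3g was the highest at 121 ± 2.88 TPM, above Serpinb9. Serpinb6b (23.6 and 28.9 TPM), Serpinb6a (27.0 and 22.9), Serpinb1a (mean 10.6 TPM) and Serpina3f (5.58) followed. Serpinb9 was therefore 1 of several expressed serpins, and was 0.541 and 0.761 times Serpinb6a.

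Of 9 transcription factor genes known to govern effector or memory T cell programmes, 6 were expressed. Id2 (179 ± 8.27 TPM), Klf13 (156 ± 0.60 TPM), whose product binds the Ccl5 promoter, and Bhlhe40 (37.6 ± 0.81 TPM) were the highest in TPM. The place of Klf13 held in TPM only: the smaller gene table kept 0.526% of its counts, with 72 and 58, and per length it ranked 6 of 9 there, beside Tbx21, while Id2 and Bhlhe40 ranked 1 and 2. Prdm1, which encodes Blimp-1, had 10.9 ± 1.94 TPM and Runx3 had 9.69 and 8.30 TPM. The smaller gene table kept 8.32% of the counts of Runx3, with 45 and 28. Per length Runx3 ranked 7 of 9 there, below Tbx21 at 5, while Prdm1 ranked 3. Tbx21, which encodes T-bet, a driver of Gzmb and Prf1 in CD8 T cells, had 1.84 ± 0.28 TPM. Eomes, the related factor, had 0.26 and 0.40 TPM, Zfp683, which encodes Hobit, 1.19 and 0.97 TPM, and Zeb2 0.08 and 0.53 TPM. The T-box factors of cytotoxic lymphocytes thus stood low or under the threshold beside Id2.

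**Figure D3:**
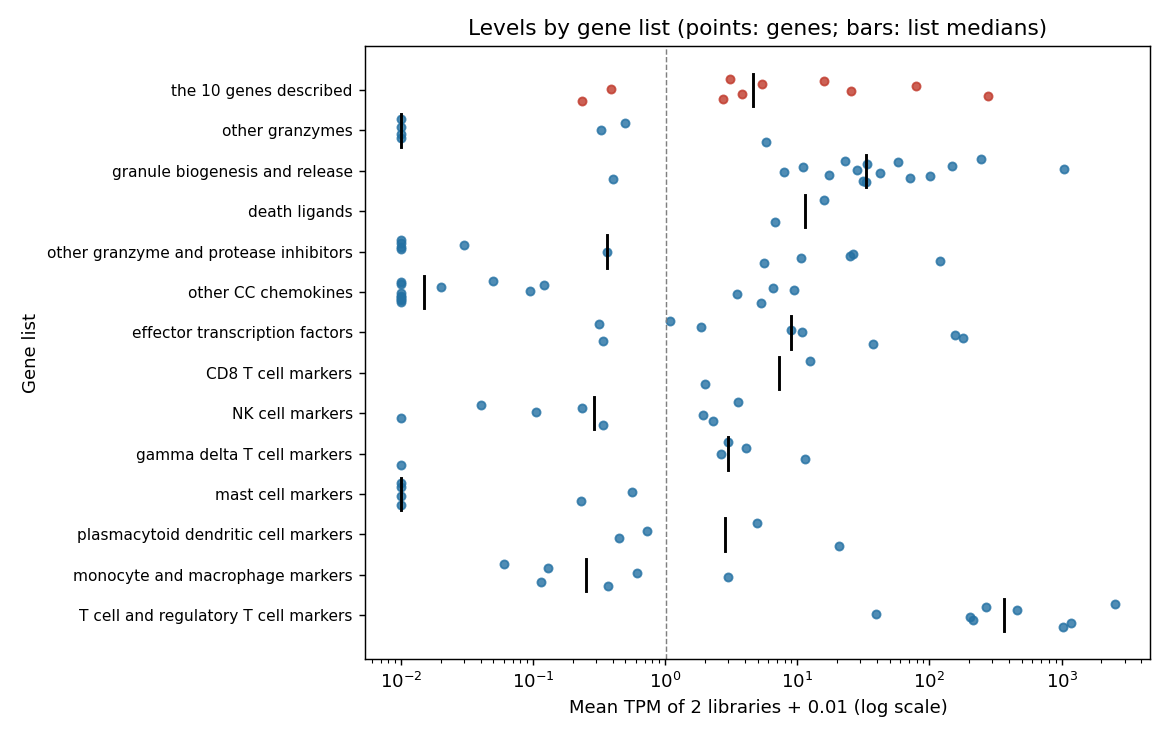
Mean TPM of every gene in each list, plus 0.01, on a log scale, with a bar at the median of the list and a dashed line at 1 TPM. The granule biogenesis and release genes have a median of 33.2 TPM and the 10 genes described a median of 4.60 TPM, while the NK, mast cell and macrophage markers lie mostly under 1 TPM. The CD8, gamma delta and plasmacytoid dendritic cell markers have medians of 7.28, 2.965 and 2.81 TPM.

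Most of the 10 genes are also expressed by CD8 T cells, NK cells and gamma delta T cells, so markers of these cells are given beside the levels. All 8 markers of T cells and regulatory T cells (Cd3e, Cd3g, Trac, Cd4, Foxp3, Il2ra, Ctla4, Ikzf2) were expressed, with summed TPM of 5826 and 6009. The general T cell genes Trac, Cd3g and Cd3e were the highest, and Foxp3 was the lowest at 43.2 and 36.2 TPM. This sum depended on the table. The smaller gene table kept 4.54% of the counts of Trac, 6.96% of Cd3e, 4.98% of Ikzf2 and 65.1% of Foxp3. Per length, Ikzf2 was there 0.853 times Gzmb against 18.2 times in TPM, and Foxp3 0.908 against 1.55 times. Of the CD8 markers, Cd8a had 54 and 48 counts (2.18 and 1.82 TPM) and Cd8b1 had 10.8 and 14.3 TPM. In TPM, Nkg7 was 7.26 and 5.50 times Cd8b1, and Ccl5 was 22.4 ± 3.46 times Cd8b1. The smaller gene table gave 910 counts per kb for Ccl5, 489 for Nkg7 and 78.9 for Cd8b1. The ratio of Ccl5 to Cd8b1 was thus smaller there. Of 8 NK markers 3 were expressed, with summed TPM of 6.89 and 9.96: Klrb1c (1.97 and 1.85 TPM) and the adaptor genes Tyrobp (2.35 and 4.77 TPM) and Fcer1g (1.96 and 2.59 TPM). Klrb1c, itself an NK receptor gene, had 37 and 44 counts. The other NK receptor genes of the list were at or near 0. Ncr1 had 1 and 0 counts, Klrd1 1 and 1, Klre1 3 and 3, and Klra8 0 in both libraries. Of 5 gamma delta markers 4 were expressed, with summed TPM of 18.9 and 23.2; Tcrg-C1 was the highest at 10.1 and 12.7 TPM, Tcrg-C4 had 3.87 and 4.34 TPM, Tcrg-C2 1.74 and 3.50 TPM and Trdc 3.21 and 2.72 TPM, and Sox13 had 0 counts. Mast cells can also carry granzyme B. None of 6 mast cell markers was expressed in TPM (summed TPM 0.80 and 0.75, 4 at 0 counts). Cpa3, with 1 and 7 estimated counts, had 12 and 16 counts in the smaller gene table, and the cause was not tested. Of the plasmacytoid dendritic cell markers, 2 of 4 were expressed, summing to 26.4 and 27.2 TPM, mostly from Ccr9 (20.7 and 20.8 TPM), which T cells also express, with Tcf4 at 5.14 and 4.67 TPM and Siglech at 0.42 TPM in library 1 and 1.01 TPM in library 2. Of 6 monocyte and macrophage markers 1 was expressed, Cd68 at 3.72 and 2.23 TPM; Lyz2 had 0 and 4 counts. The part of CD8, NK, gamma delta or other cells in the levels of the 10 genes was not tested.

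Gzmb, Ccl3, Ccl4 and Xcl1 have 1 annotated transcript each, so transcript estimates bear on the other 6 genes. Ccl5-201, the coding transcript of 532 bases, took 99.2% and 99.3% of the TPM of Ccl5, and the retained intron transcript Ccl5-202 took 0.76% and 0.68%. The RNA counted for Ccl5 was therefore nearly all assigned to its coding form. Gzma-201 took 100% in both libraries, and 89.8% and 89.7% by the posterior mean estimates. Prf1-202 led Prf1-201 by 82.1% to 17.9% in library 1 and 87.4% to 12.6% in library 2. For Nkg7, Nkg7-201 held 76.6% and 80.9%, Nkg7-203 held 12.1% and 11.2%, and the retained intron transcript Nkg7-202 held 11.3% and 7.90%.

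The split of Serpinb9 between its transcripts was not stable between libraries. Serpinb9-202 took 88.1% in library 1 and 100% in library 2, while Serpinb9-201 took 11.9% (72.5 estimated counts) and 0%. Only 19 of the 3348 windows of 50 bases of Serpinb9-201 (0.568%) are absent from the other transcript, so few reads could separate them. The posterior mean estimates gave Serpinb9-201 a share of 18.3% and 15.5%. On 7 and 2 counts, Gzmk was assigned wholly to Gzmk-201 in library 1 and wholly to Gzmk-203, a transcript marked for nonsense-mediated decay, in library 2, and Gzmk-201 has 0 windows of its own.

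The technical libraries were compared gene by gene to see how far their levels differed. An exact two-sided binomial test of the rounded counts, given their sum, was run on the 17458 genes whose counts summed to at least 10, with Benjamini-Hochberg adjustment; log2 ratios are library 2 over library 1. Of the 8 members tested 2 were called, both higher in library 2, while 25.1% of all genes tested were called and 11.8% were called as higher in library 2. The members' count is thus near that of all genes. Serpinb9 differed by 0.30 (adjusted p = 0.00143) and Ccl5 by 0.13 (adjusted p = 0.0355). The other 6 did not pass: Gzmb 0.08 (adjusted p = 0.611), Nkg7 0.07 (0.531), Prf1 -0.15 (0.581), Gzma -0.10 (0.924), Xcl1 0.20 (0.880) and Ccl4 -0.57 (0.408). Gzmk and Ccl3 had fewer than 10 counts and were not tested. For expressed genes the median size of the log2 ratio was 0.16, and Serpinb9, Xcl1 and Ccl4 lay above that size and the other 5 members tested below it.

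Read counts varied between the libraries by more than counting error, with a median chi-square of 2.75 and a mean of 12.8 per gene for summed counts of 200 or more, so the binomial p-values are too small. In edgeR's exact test with a common dispersion (estimated over both libraries as 1 group, a coefficient of variation of 13.0% beyond counting error), 0 of the 8 members were called and none had an unadjusted p under 0.05; 2.00% of all genes were called. Unadjusted p was 0.289 for Serpinb9 and 0.631 for Ccl5. Of the granule release genes, all 16 tested, 5 were called as higher in library 2 and 5 as higher in library 1 by the binomial test, which called 25.1% of all genes tested and 11.8% as higher in library 2. Srgn, with 10623 and 12059 counts, differed by 0.15 (adjusted p = 2.65e-13), a small step called because of its depth. Among the inhibitors and ligands named earlier, Fasl differed by 0.57 (adjusted p = 0.00369), Serpinb6b by 0.33 (6.17e-04) and Serpinb1a by -0.56 (0.00265).

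**Figure D4:**
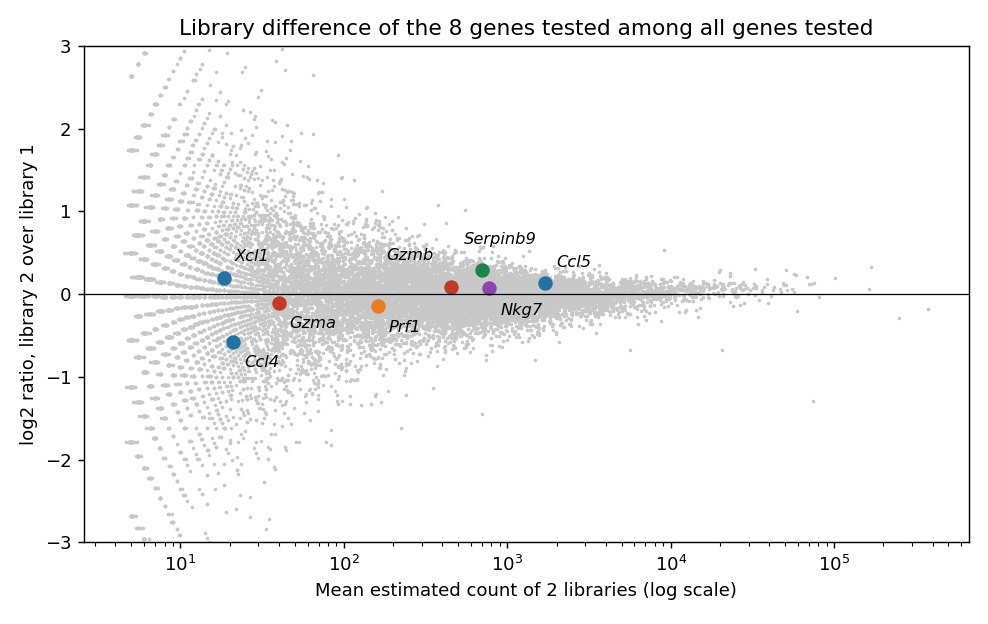
Log2 ratio of library 2 over library 1 against the mean estimated count on a log scale, with the 17458 genes tested in grey, of which 303 lie outside the axis range, and the 8 members tested in colour. The members lie within the grey cloud, with Serpinb9 at 0.30 and Ccl4, on few counts, at -0.57.

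The smaller gene table gave a second count of the same libraries. It held 3742024 counts in library 1 and 3675918 in library 2 on matched genes, or 23.7% and 22.8% of the estimated counts. The 10 genes kept their order there when counts were divided by length, with 10 of 10 at the same rank. Ccl5 had 486 and 482 counts, Nkg7 414 and 448, Serpinb9 257 and 313, Gzmb 212 and 227, and Prf1 96 and 92. The lower members had 34 and 33 counts for Gzma, 12 and 13 for Xcl1, 13 and 10 for Ccl4, 4 and 2 for Gzmk, and 1 and 0 for Ccl3.

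The share of its counts that a gene kept in the smaller table differed among members. Ccl5 kept 28.3% and Gzma 83.8%, with Serpinb9 at 40.8%, Gzmb at 48.6%, Nkg7 at 55.5%, Prf1 at 58.2%, Ccl4 at 54.8% and Xcl1 at 67.6%. Genes with counts within 1.5 times those of Ccl5 kept a median of 37.8%, and genes so matched to Gzma kept 40.4%. Gzma was above 91.8% of its like-count genes. Over all genes the median kept share was 42.9% at 10 to 30 counts, 38.0% at 1000 to 3000 counts and 4.69% at 10000 or more. Per length, Ccl5 was 1.86 times Nkg7 in the smaller table against 3.53 times in TPM, so the lead of Ccl5 held in direction but its size depended on the table.

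**Figure D5:**
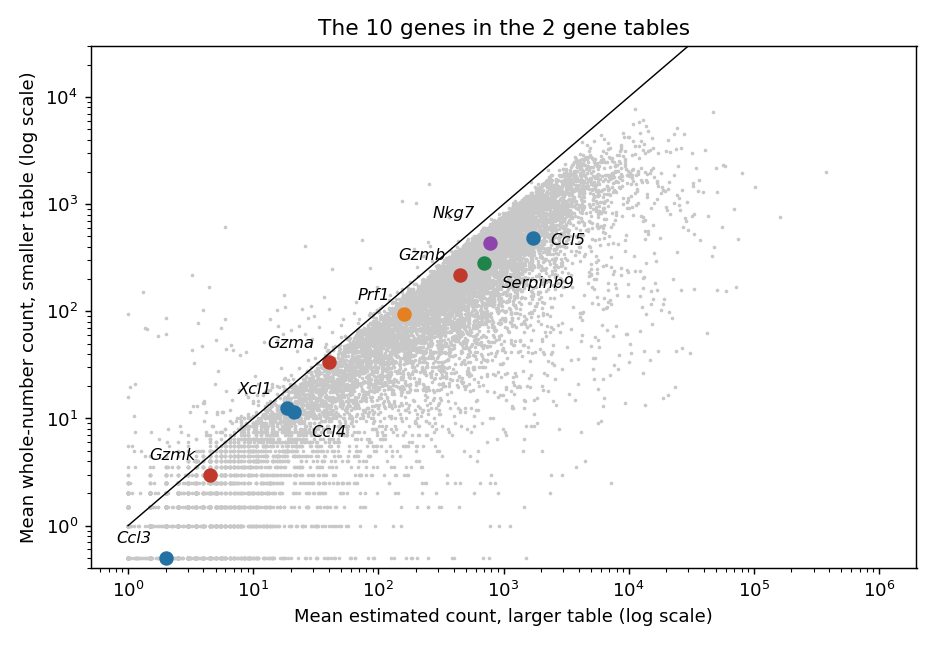
Mean whole-number count in the smaller gene table against the mean estimated count in the larger table, both on log scales, with every gene counted in both in grey, the 10 members in colour and the line of equality. Gzma lies closest to the line and Ccl5 furthest below it among the members with 10 or more counts.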

How the data were processed

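PolyA plus RNA-seq of 1 biological sample was used in 2 technical libraries, labelled as technical replicates, which form 1 group. Per the file headers and readme texts, the larger gene and transcript tables use mm10 and GENCODE M21 and carry RSEM's columns; aligner and versions: not given in the sources used here. The authors deposited estimated counts (expected counts, unscaled), TPM (maximum likelihood and posterior mean, scaled over all features), FPKM (scaled for length and depth) and, per transcript, the percent of a gene's TPM. The smaller table holds deposited whole-number counts per gene (GENCODE M4, an earlier alignment), by a counting tool and strand setting likewise not stated. The authors' credibility bounds of TPM were not printed. Of the larger table, 26345 features without a GENCODE identifier were not used.

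Symbols, positions and transcript sequences came from GENCODE M21, matched by identifier. Estimated counts were rounded for tests. Genes were tested with an exact binomial test (summed count of 10 or more, Benjamini-Hochberg at 0.05). Library sizes were scaled by TMM (edgeR 4.0.16, R 4.3.3), log2 ratios used a prior count of 0.5, and other steps ran in Python 3.11.15 with scipy 1.17.1. This test was checked on data simulated with counting error only, which is less than the spread of these libraries. It compares 2 libraries of 1 sample, and reads are not independent molecules. Protein sequences were not used here, so identity was taken over coding sequences. Intervals are 95%.

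The members and the 13 lists of 100 other genes were chosen with earlier results of these data known; a list of the chemokines' receptors is not reported here. Named genes are all members and, in each list, those expressed, the highest and lowest, and those at 0, in part as counts; other genes named were chosen after their values were seen. Alternatives were posterior mean TPM, FPKM, protein-coding scaling, a 5 TPM threshold, each library alone, DESeq2 1.42.0 size factors, unscaled totals, no count filter, a prior count of 2, edgeR's exact test, the smaller table, transcript shares by counts or posterior mean, and windows of 36 and 100 bases.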

Additional observations from a re-analysis of the deposited data

How the results depend on the processing

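No paired analysis was possible because all samples belong to 1 group. The order of the 10 genes was the same in posterior mean TPM, in TPM over protein-coding transcripts and per length in the smaller table. With either library left out, 8 of the 10 remained expressed and their median lay between 4.32 and 4.89 TPM. At 5 TPM, 5 of the 10 were expressed in place of 8. The median was 3.66 in FPKM, which is 0.785 and 0.806 times TPM in libraries 1 and 2 by its scaling. Of the 2 members called different between libraries, edgeR's exact test called 0 (0 at an unadjusted p under 0.05) and counts of the smaller table gave 0 calls (1 at an unadjusted p under 0.05). Without a count filter 1 was called, with 29093 genes tested in place of 17458. Ccl5 then had an adjusted p of 0.0563. In the smaller table the log2 ratio of Ccl5 was -0.0044 (adjusted p = 1), reversed from 0.13, and that of Serpinb9 was 0.29 (adjusted p = 0.11); the cause was not tested. Genes that share windows numbered 3 at 36 bases and 0 at 100 bases, in place of 1. DESeq2 size factors, unscaled totals and a prior count of 2 left 2 members called. Depth limits Gzmk and Ccl3, whose counts of 7 and 2 and of 3 and 1 do not fix a level, and 1 animal gives no biological spread.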
